A study of Mus musculus with 6 samples.

Results

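The genes described here encode the proteins that display peptides to T cells on the major histocompatibility complex (MHC), together with their closest partners. They were chosen by name, 10 genes in all, and found on the array as the non-control probes whose accession belongs to one of them in the RefSeq table. This gave 12 probes, of 28026 probes that could be named for 21154 genes. All 10 genes were well above background on all 6 arrays and were among the 15319 genes tested. Of the members, 7 belong to the class II pathway (H2-Aa, H2-Ab1, H2-Eb1, Cd74, Ciita, H2-DMa and H2-DMb1) and 3 to class I (H2-K1, H2-D1 and B2m).

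The samples were whole kidneys of male C57BL/6J mice, 3 animals labelled iNampt-conditional knockout and 3 labelled Control, each measured on its own single-colour Agilent array. Nampt encodes the enzyme that limits NAD salvage, and the series title places the deletion in renal proximal tubules. The Cre driver, the genotype of the controls and the age of the mice are not given in the sources used here, and no diabetic treatment is given for these animals. Proximal tubule markers such as Slc27a2 and Slc5a2 and the loop marker Umod were detected on all 6 arrays.

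Class I molecules consist of a heavy chain and beta-2 microglobulin, are made by most nucleated cells and present peptides from inside the cell to CD8 T cells. Class II molecules are alpha and beta chain pairs, are made mainly by dendritic cells, macrophages and B cells, and present peptides from the endosome to CD4 T cells. In the kidney, resident dendritic cells and macrophages carry most class II, and tubule cells can be induced to make it by interferon gamma. Transcription of the class II genes depends on the coactivator CIITA, which is recruited to a conserved set of promoter boxes called X and Y. Class I promoters carry an enhancer with a kappaB-like site and are activated through the related coactivator NLRC5.

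The promoter stretches below are shown because they hold the letters of the boxes named above. They are from RefSeq, on build GRCm38.p6, 5′ to 3′ on the strand of the gene and ending at the base before the annotated start. Promoter windows were matched for 7 of the 10 members. Those of H2-Ab1, Cd74 and Ciita are not shown here. A window of the class II gene H2-DMa held a Y box 198 bases before its start, and another held none. No X1 or X2 box was found in H2-DMa, and its windows are not printed. In the class II stretches capitals mark an X1 box (AG, any 2 bases, AC, any 2 bases, ATG), an X2 box (TGANGTCA) or a Y box (ATTGG). H2-Aa lies at chr17:34287824-34287933 on the minus strand, H2-Eb1 at chr17:34305757-34305866 on the plus strand and H2-DMb1 at chr17:34153081-34153190 on the plus strand.
H2-Aa: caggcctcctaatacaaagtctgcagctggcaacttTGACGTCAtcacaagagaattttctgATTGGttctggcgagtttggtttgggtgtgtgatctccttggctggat
H2-Eb1: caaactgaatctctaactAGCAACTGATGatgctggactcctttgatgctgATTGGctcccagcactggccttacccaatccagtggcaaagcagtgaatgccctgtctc
H2-DMb1: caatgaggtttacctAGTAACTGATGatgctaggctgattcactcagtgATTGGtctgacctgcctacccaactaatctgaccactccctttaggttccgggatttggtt

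In the class I stretches capitals mark the enhancer A site (GGGGA, any base, TCCCC) and the Y box in H2-K1 and H2-D1, and the interferon response element (GAAA, any 2 bases, GAAA) and the Y box in B2m. H2-K1 lies at chr17:34000348-34000477 on the minus strand, H2-D1 at chr17:35262904-35263093 on the plus strand and B2m at chr2:122147537-122147686 on the plus strand.
H2-K1: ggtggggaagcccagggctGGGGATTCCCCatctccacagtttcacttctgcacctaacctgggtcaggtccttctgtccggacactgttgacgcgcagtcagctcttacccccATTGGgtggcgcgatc
H2-D1: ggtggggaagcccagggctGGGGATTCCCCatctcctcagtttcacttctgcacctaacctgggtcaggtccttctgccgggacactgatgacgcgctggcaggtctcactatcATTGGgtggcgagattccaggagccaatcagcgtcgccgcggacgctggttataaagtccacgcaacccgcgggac
B2m: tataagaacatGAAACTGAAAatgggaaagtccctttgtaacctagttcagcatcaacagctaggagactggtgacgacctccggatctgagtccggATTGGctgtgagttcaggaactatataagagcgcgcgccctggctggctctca

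The motifs were searched on both strands of the 250 bases before each start, in 32851 windows. The Y box occurred in 33.8% of all windows, the X2 box in 7.49%, the interferon response element in 2.98% and the X1 box in 2.6%. Enhancer A occurred in 15 windows, or 0.0457%, and was found in H2-K1 and in H2-D1. In H2-Eb1 and H2-DMb1 the X1 and Y boxes start 33 and 34 bases apart, and in H2-Aa the X2 and Y boxes start 26 bases apart. An X1 box followed 30 to 40 bases later by a Y box on the same strand, a spacing chosen after these matches were seen, occurred in 13 windows of 12 genes. Besides H2-Eb1 and H2-DMb1 these include the class II genes H2-Eb2 and H2-Ob. H2-K1 and H2-D1 also hold the letters of the X2 box, as TGAGGTCA, 124 bases before the Y box, where H2-Aa has them 26 bases before it. They lie 140 and 200 bases before the start, outside the stretches printed. The letters of the Y and X2 boxes were thus found in members of both classes. Those of the X1 box were found in H2-Eb1 and H2-DMb1, among the class II members with a window. A match is a run of letters and does not show that a factor bound there in these kidneys.

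The targeted gene was lower in the knockout kidneys. Nampt lay at 1.804, 1.502 and 1.531 in the knockouts, against 2.775, 2.591 and 2.646 in the controls. These values, and all levels below, are normalised log2 signals, the log2 processed signal of a probe minus the 75th percentile of its array. The difference was -1.06 ± 0.10 (SE; limma adjusted p = 0.0432). Fitted with the slide row as a blocking term, it was -0.87 (limma adjusted p = 0.0736). The adjusted p was at or above 0.05 in 9 of 18 alternative settings and reached 0.184 without control 3, while the difference stayed between -1.15 and -0.87. All 6 arrays lay on 1 slide. The controls and knockout 1 occupied its first row and knockouts 2 and 3 its second. The share of spots well above background was 61.9% to 63.3% in the controls, 61.5% in knockout 1, and 58.1% and 57.3% in knockouts 2 and 3. The lowest processed signal well above background was 29.6 and 32.2 in knockouts 2 and 3, against 18.5 to 20.9 on the first row. Saturation was not seen. Replicates are mice numbered separately in the labels.

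All 10 MHC genes had a higher mean in the knockout than in the control kidneys, and each class II gene had a larger mean difference than each class I gene. This order of the classes held in 15 of 18 alternative settings. It did not hold with slide row as a block, where H2-K1 was at 0.44 and H2-DMa at 0.16, without knockout 2 (0.27 and 0.24) or without knockout 3 (0.29 and 0.26). None of the 10 passed limma's test at a Benjamini-Hochberg adjusted p under 0.05, where 0.17% of the genes tested did (26 of 15319). At an unadjusted p under 0.05, 6 of the 7 class II members and 0 of the 3 class I members were higher, and 0 of either were lower, where 6.68% of all genes were higher and 6.12% lower. All 3 knockouts lay above all 3 controls in 6 of 7 class II and 0 of 3 class I members, where 9.03% of all genes did so. The class I count depended on the probe, since with both probes of H2-K1 averaged it reached an unadjusted p of 0.0447 and 7 of the 10 members had no overlap. The median log2 difference was 0.46 over class II (range 0.28 to 1.45), 0.11 over class I (range 0.08 to 0.23) and -0.0077 over all genes tested. The members were chosen with earlier results in view, so these counts describe them and are no test of the set or of the difference between the classes. Without control 2, and likewise without control 3, the count at an unadjusted p under 0.05 was 3 of 10 members in place of 6. Without control 1, the highest control in all 10 members, all knockouts lay above the remaining controls in all 10. With fewer controls such separation is easier to reach, and the share of all genes that reached it was not counted.

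**Figure D1:**
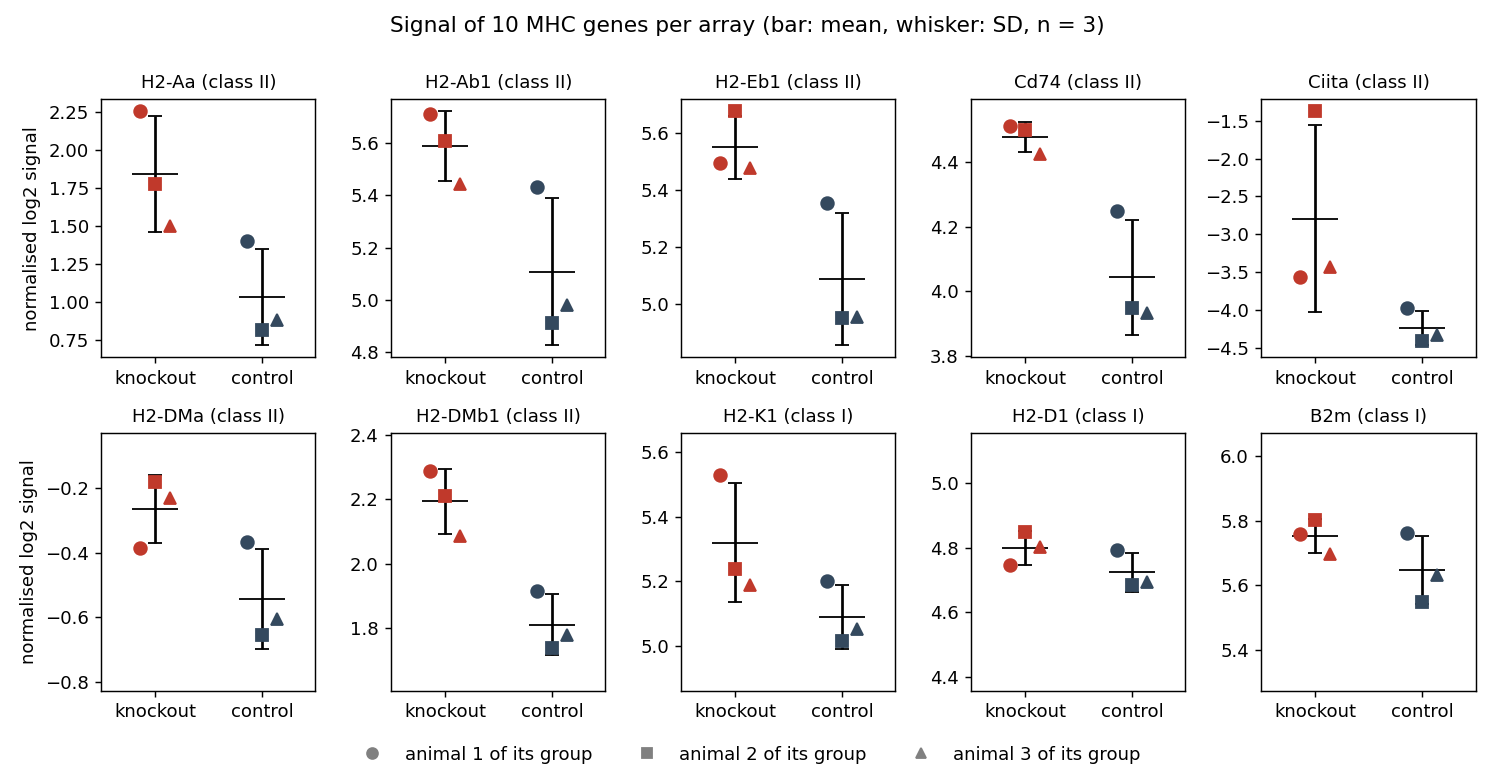
Each panel plots the normalised log2 signal (y axis) of 1 gene on the 3 knockout and 3 control arrays, with the group mean as a bar and the SD as whiskers (n = 3 each). Control 1, the circle among the controls, is the highest control in all 10 panels, and in Ciita the knockout 2 array stands at -1.37, above the other 5. The y axes differ between panels, because levels of different probes cannot be set against each other.

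The chains of the I-A molecule, the class II molecule on which C57BL/6 mice depend, were measured by H2-Aa for the alpha chain and H2-Ab1 for the beta chain. H2-Aa lay at 2.254, 1.773 and 1.498 in the knockouts, against 1.399, 0.820 and 0.884 in the controls. The lowest knockout, animal 3, was 0.10 above control 1, so the groups did not overlap but nearly met. The difference of 0.81 ± 0.24 (log2, SE) is 1.75-fold (limma unadjusted p = 0.0148, adjusted p = 0.276).

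H2-Ab1 lay at 5.71, 5.61 and 5.44 in the knockouts, against 5.43, 4.91 and 4.98 in the controls. Knockout 3 and control 1 differed by 0.014, while controls 2 and 3 lay well below every knockout. Its difference was 0.48 ± 0.15, or 1.39-fold (limma adjusted p = 0.302). Both chains had the order of animals in common, with knockout 1 highest, then 2, then 3, and control 1 highest among the controls. On the second H2-Ab1 probe the levels were 5.57, 5.61 and 5.38 in the knockouts, against 5.39, 4.88 and 4.89 in the controls, a difference of 0.46 ± 0.16 in a fit of every probe. There knockout 2 was highest and knockout 3 lay just below control 1, so the groups overlapped.

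H2-Eb1, the beta chain of the I-E molecule, is transcribed in C57BL/6 mice although their alpha chain gene for I-E is not functional. It lay at 5.50, 5.68 and 5.48 in the knockouts, against 5.35, 4.95 and 4.95 in the controls. Knockout 2 was highest here rather than knockout 1, and the groups did not overlap. The difference was 0.46 ± 0.13, or 1.38-fold (limma adjusted p = 0.257).

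Cd74 encodes the invariant chain, which occupies the groove of new class II molecules and carries them to the endosome. It lay at 4.51, 4.50 and 4.43 in the knockouts, against 4.25, 3.95 and 3.93 in the controls. The knockouts were closer to each other (SD 0.047) than the controls (SD 0.18, n = 3 each), again because control 1 stood above controls 2 and 3. The difference of 0.44 had a 95% interval from 0.20 to 0.67 (limma unadjusted p = 0.00394, adjusted p = 0.200).

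H2-DMa and H2-DMb1 encode the chains of H2-M, which removes the invariant chain fragment and loads peptide. H2-DMb1 lay at 2.29, 2.21 and 2.09 in the knockouts, against 1.92, 1.74 and 1.78 in the controls, and its groups were apart by 0.17. With 0.38 ± 0.08, or 1.30-fold, it had the smallest p of the members (limma unadjusted p = 0.00249, adjusted p = 0.172), the 222nd smallest of 15319 genes. H2-DMa lay at -0.39, -0.18 and -0.23 in the knockouts, against -0.37, -0.66 and -0.61 in the controls. Here knockout 1 lay just below control 1, so H2-DMa was the class II member whose groups overlapped. Its difference was 0.28 ± 0.10 (limma adjusted p = 0.337).

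Ciita encodes the master coactivator of class II transcription and had the lowest signal over background of the members, its dimmest array being 2.21 (log2) above the lowest detected signal of that array. It lay at -3.57, -1.37 and -3.44 in the knockouts, against -3.98, -4.41 and -4.33 in the controls. All knockouts were above all controls, and knockout 2 was far above the others, at 2.87 over the control mean where knockouts 1 and 3 were at 0.67 and 0.80. The mean difference of 1.45 ± 0.59 had a 95% interval from -0.0074 to 2.90 (limma unadjusted p = 0.0508, adjusted p = 0.391). Without knockout 2 it was 0.74 (limma unadjusted p = 0.00381, adjusted p = 0.338), and with normexp background correction and quantile normalisation it was 0.64. Among the other class II members, H2-Eb1 and H2-DMa were also highest in knockout 2, while H2-Aa, H2-Ab1, Cd74 and H2-DMb1 were highest in knockout 1.

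H2-K1 and H2-D1 encode the class I heavy chains K and D. H2-K1 lay at 5.53, 5.24 and 5.19 in the knockouts, against 5.20, 5.01 and 5.05 in the controls, with knockout 1 above the rest and control 1 just above knockout 3. The difference was 0.23 ± 0.11 (limma adjusted p = 0.445), and it was 0.12 without knockout 1. The second H2-K1 probe lay at 4.56, 4.46 and 4.41 in the knockouts, against 4.35, 4.25 and 4.29 in the controls, without overlap, and gave 0.18 ± 0.06 (limma unadjusted p = 0.0276, adjusted p = 0.395 in the fit of every probe). H2-D1 lay at 4.746, 4.850 and 4.801 in the knockouts, against 4.793, 4.684 and 4.693 in the controls, and the groups overlapped through knockout 1 and control 1. Its difference of 0.08 had a 95% interval from -0.06 to 0.21. Class I heavy chain genes are close copies of each other, and how far their probes share targets was not tested.

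B2m encodes beta-2 microglobulin, the light chain of every class I molecule. It lay at 5.76, 5.80 and 5.70 in the knockouts, against 5.76, 5.55 and 5.63 in the controls. Control 1 and knockout 1 were nearly equal, and the difference of 0.11 had a 95% interval from -0.06 to 0.28 (limma adjusted p = 0.599). The groups overlapped, and the interval includes 0.

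**Figure D2:**
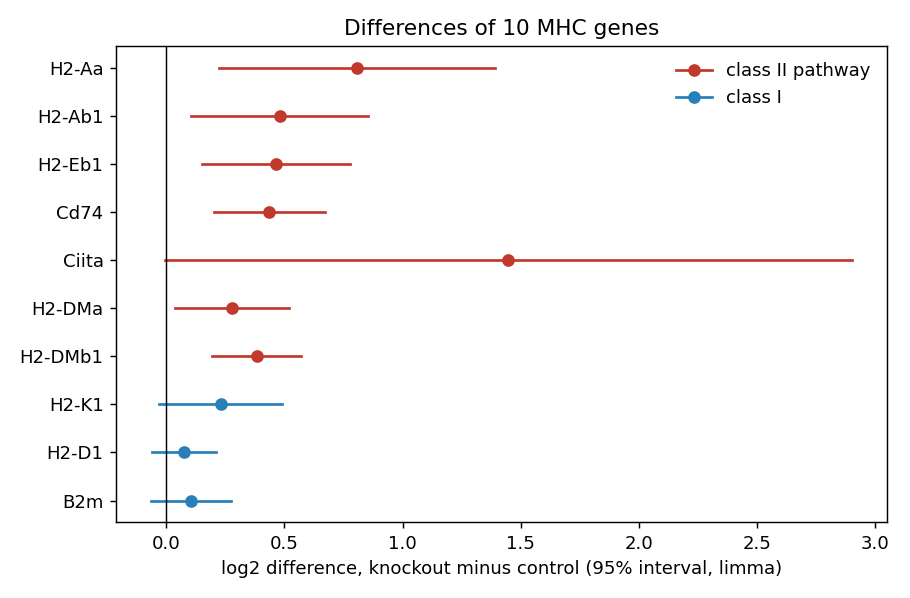
The plot gives the log2 difference of knockout minus control (x axis) for each of the 10 genes, with its 95% limma interval as a line. The intervals of 6 class II genes lie above 0, that of Ciita reaches -0.0074, and those of the 3 class I genes span 0.

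Array by array, each class was summed as the median deviation of its members from their control mean, on the log2 scale. Class II stood at 0.48, 0.50 and 0.38 in the knockouts, against 0.26, -0.14 and -0.11 in the controls. Class I stood at 0.11, 0.15 and 0.08 in the knockouts, against 0.11, -0.07 and -0.03 in the controls. On these medians every knockout was above every control for class II, whereas for class I control 1 lay within the range of the knockouts. The gap of class II over class I was 0.36, 0.35 and 0.30 in the knockouts and 0.15, -0.06 and -0.08 in the controls. Its mean was 0.34 ± 0.03 in the knockouts and 0.0031 ± 0.13 in the controls (SD, n = 3 each), a difference of 0.34. No p is given for this score, since the members were chosen with results in view. The 3 knockouts were alike and above all controls. Among the controls, animal 1 was highest in all 10 members, which was so for 29.1% of all genes tested, and it shared the pattern of a larger deviation in class II than in class I.

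**Figure D3:**
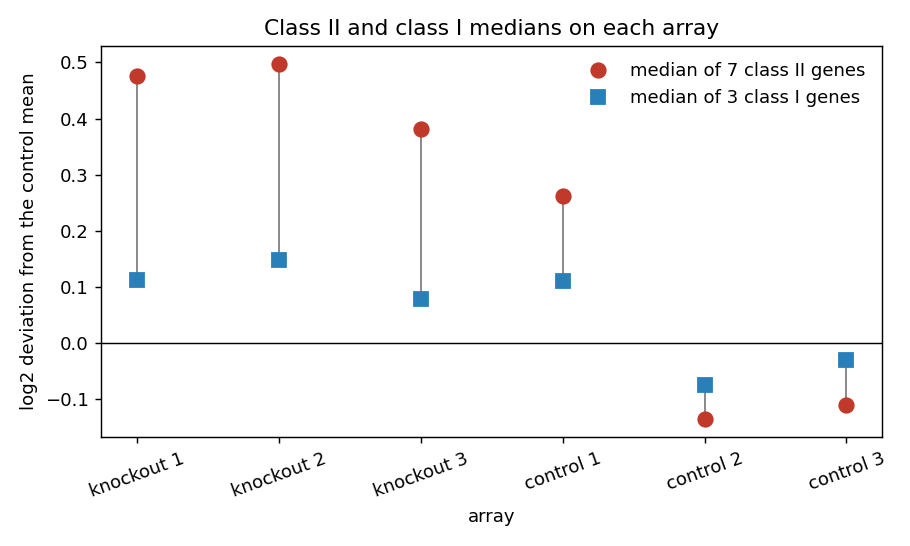
The y axis is the log2 deviation from the control mean, as the median of 7 class II genes (circles) and of 3 class I genes (squares) on each array (x axis), with a line for the gap between them. The gap is 0.36, 0.35 and 0.30 in the knockouts, against 0.15 in control 1 and slightly negative values in controls 2 and 3.

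Knockout 1 was the single knockout on the slide row of the controls, so it gives the comparison within a row. Against the 3 controls, it differed by 1.22 in H2-Aa, 0.60 in H2-Ab1, 0.41 in H2-Eb1, 0.47 in Cd74, 0.67 in Ciita, 0.48 in H2-DMb1 and 0.16 in H2-DMa. For class I it differed by 0.44 in H2-K1, 0.11 in B2m and 0.02 in H2-D1. Within the row, H2-K1 thus exceeded H2-Eb1 and H2-DMa of class II. Knockout 1 lay above all controls in 7 of the 10 members, where it did so in 23.7% of all genes. With slide row as a block the adjusted p of the members lay between 0.236 and 0.956.

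The rest of the class II pathway had differences of both signs. Of 12 further genes for class II chains and peptide loading, 9 were tested, 0 passed the adjusted threshold, 2 were higher and 0 lower at an unadjusted p under 0.05, and the median difference was 0.05. For this list and those below, 6.68% of all genes tested were higher and 6.12% lower at that p. Ctss, the protease that trims the invariant chain, lay at 2.529, 2.999 and 2.698 in the knockouts, against 2.424, 2.111 and 2.128 in the controls (difference 0.52 ± 0.15, limma adjusted p = 0.262). H2-Oa, a chain of the H2-O molecule that restrains H2-M, lay at -2.36, -2.69 and -3.08 in the knockouts, against -3.13, -4.05 and -3.78 in the controls (difference 0.94 ± 0.28, limma adjusted p = 0.281). Both were above every control in every knockout. The endosomal enzymes Lgmn and Ifi30 were at -0.12 ± 0.08 and 0.08 ± 0.05, and Sppl2a was at -0.07 ± 0.05. In Lgmn and Sppl2a every knockout was below every control, though in Lgmn knockout 1 (7.3418) and control 1 (7.3422) nearly met. The list thus had 2 genes apart in each direction, where 1384 of 15319 genes were apart upwards and 1607 downwards. H2-DMb2 was not well above background on any array, and H2-Eb2 was so on 1 knockout array.

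Of 12 genes for transcription factors that act on class II promoters or on Ciita, 11 were tested, 0 passed the adjusted threshold, 1 was higher and 1 lower at an unadjusted p under 0.05, and the median was -0.0035. Irf4, an interferon regulatory factor of lymphocytes and dendritic cells, was well above background on all knockout arrays and on no control array. Irf4 differed by 1.12 ± 0.26 (log2, SE), a point estimate of 2.17-fold (limma adjusted p = 0.213). Its means were -4.25 in the knockouts and -5.37 in the controls. It is the 1 gene counted as higher, and since it was tested only because of its knockout arrays, that count is no support for a change in the list. Of the X box factor's subunits, Rfxank was at -0.19 ± 0.06 and Rfx5 at -0.35 ± 0.14, and the Y box subunit gene Nfyb was at -0.10 ± 0.07.

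For class I, the genes of peptide processing and loading had 15 members tested of 16, with 0 past the adjusted threshold, 0 higher and 1 lower at an unadjusted p under 0.05, and a median of 0.02. The coactivator gene Nlrc5 was at 0.35 ± 0.16 and Tap1, a subunit of the peptide transporter, at 0.25 ± 0.15. In both, control 1 lay within the range of the knockouts. Hspa5, an endoplasmic reticulum chaperone, was at -0.39 ± 0.12 and the trimming peptidase gene Erap1 at -0.10 ± 0.05. Of the class Ib genes, which encode class I-like molecules, 14 of 18 were tested and 0 passed. At an unadjusted p under 0.05, H2-M3 (0.20 ± 0.07) and H2-Q7 (0.14 ± 0.05) were higher and 0 were lower. The median difference was 0.09, and 11 of the 14 were positive. All knockouts lay above all controls in 5 of the 14, where 9.03% of all genes did so, and below them in 1. H2-Q8, at 0.12 ± 0.06, and H2-T24, at -0.19 ± 0.08, did not reach that p.

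Interferon gamma, the main inducer of CIITA outside professional antigen-presenting cells, had a list of 20 genes here, made up of its own gene Ifng, its receptor chains, their kinases and genes it induces. Ifng was not well above background on all arrays of either group. The other 19 were tested, 0 passed, 1 was higher and 0 were lower at an unadjusted p under 0.05, and the median was -0.02. Gbp6 was at 0.22 ± 0.08 and the chemokine gene Cxcl9 at 0.50 ± 0.22, while Irgm1 was at -0.22 ± 0.09 and Gbp7 at -0.18 ± 0.10.

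The list for co-stimulation, the second signal that antigen-presenting cells give to T cells, also held genes of ligands that inhibit T cells. It had 7 of 9 members tested, all 7 with a positive difference and a median of 0.19, where 47.1% of all genes were positive. None passed the adjusted threshold, and 2 were higher at an unadjusted p under 0.05. Cd83, which stabilises class II on the cell surface, lay at -0.11, -0.17 and -0.48 in the knockouts, against -0.82, -1.15 and -1.41 in the controls. All knockouts were above all controls (difference 0.88 ± 0.17, limma unadjusted p = 0.00228, adjusted p = 0.165). Tnfsf9 was at 0.54 ± 0.21, Cd86 at 0.31 ± 0.14 and Icosl at 0.19 ± 0.13.

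Of 17 markers of dendritic cells and macrophages, the cells that carry most class II, 16 were tested. At an unadjusted p under 0.05, 8 were higher and 0 lower, where 6.68% and 6.12% of all genes were, 0 passed after adjustment, and the median was 0.31. Summed on the linear scale, the normalised signal of the list was 72.6 to 76.1 in the knockouts and 62.0 to 68.5 in the controls. Itgam and Csf1r, however, gave 85.5% to 89.8% of it. The macrophage growth factor receptor gene Csf1r lay at 4.84, 4.98 and 4.90 in the knockouts, against 4.70, 4.59 and 4.57 in the controls. Itgax, which encodes CD11c, lay at -0.61, -0.34 and -0.55 in the knockouts, against -0.87, -1.37 and -1.60 in the controls. In both genes the groups did not overlap. Lyz2 was at 1.37 ± 0.32 and Mrc1 at 0.77 ± 0.21, while Batf3, a transcription factor of dendritic cells, was at -0.27 ± 0.12 with every knockout below every control. Cx3cr1, a chemokine receptor gene, was at -0.19 ± 0.14, Itgam at 0.06 ± 0.06 and Zbtb46 at 0.06 ± 0.16. Xcr1, a marker of cross-presenting dendritic cells, was not well above background on any array.

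By array, the median of this marker list was 0.25, 0.45 and 0.29 in the knockouts, against 0.33, -0.09 and -0.24 in the controls. On this median control 1 thus lay within the knockouts, where for class II it lay below them. Single markers differed: in 7 of the 16 tested all knockouts lay above all controls, control 1 included, where 9.03% of all genes did so. In 1 marker all knockouts lay below all controls. In whole kidney, more cells of a type and more RNA per cell cannot be told apart. The part of these markers in the class II differences was not tested.

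Of 11 B cell markers, 6 were tested, and 5 of these had a negative difference, with a median of -0.03. Jchain, a plasma cell gene, was at 0.87 ± 0.33 with overlapping groups, Fcer2a was at -0.20 ± 0.17, Ms4a1 at -0.36 ± 0.39 and Cd22 at -0.03 ± 0.08. The defining genes Blk, Pax5 and Cd79a were not well above background on all arrays of either group. Summed on the linear scale, the signal of the 6 tested genes was 2.73 to 3.67 in the knockouts and 2.34 to 2.95 in the controls. Of these genes, Jchain alone had a positive difference. Of the T and NK cell markers, 10 of 14 were tested, with a median of 0.22. At an unadjusted p under 0.05, 1 was higher and 1 lower, and 0 passed after adjustment. Cd2 was at 0.58 ± 0.23, Cd3g at 0.50 ± 0.21 and Lck at 0.39 ± 0.19, each with overlapping groups. The granzyme gene Gzma was at -0.41 ± 0.10, with every knockout below every control. Of the rest, Cd8b1 was at 0.77 ± 0.65, Cd3d at 0.47 ± 0.27 and Cd3e at 0.05 ± 0.07. Nkg7 was at 0.0003 ± 0.06, Cd4 at -0.02 ± 0.06 and Cd8a at -0.18 ± 0.23. On the linear scale, the summed signal of the 10 was 10.8 to 11.4 in the knockouts and 10.6 to 11.2 in the controls. Endothelial markers, whose cells carry class I, had a median of 0.003 over 8 genes, with Tek at -0.13 ± 0.08 and Pecam1 at -0.02 ± 0.05. Proximal tubule markers had a median of 0.02 over 10 genes, and 0 of them reached an unadjusted p under 0.05.

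**Figure D4:**
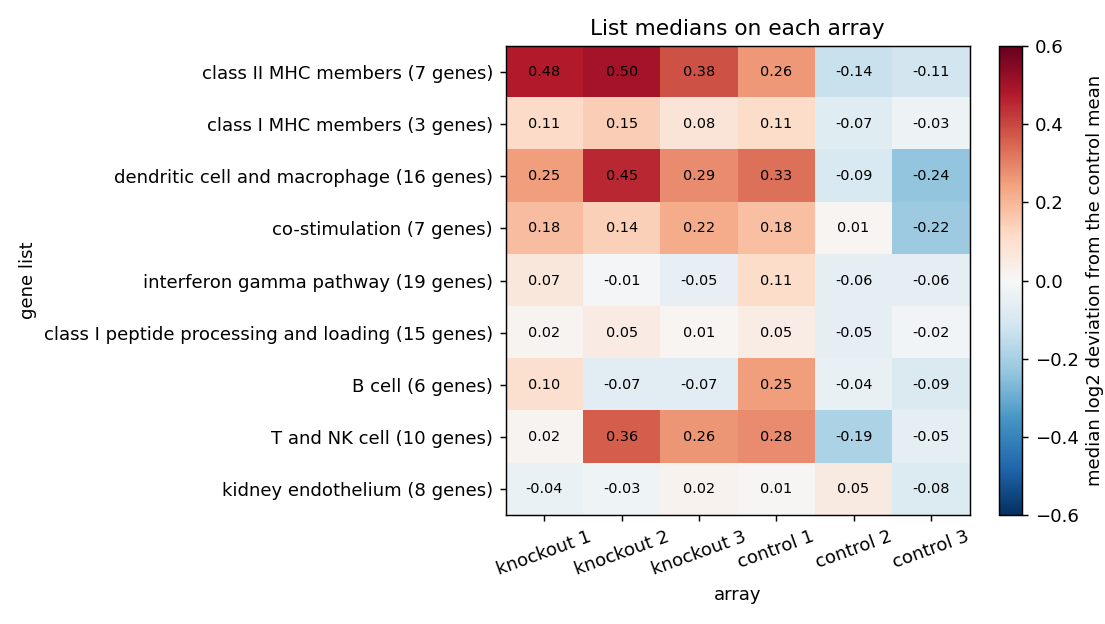
Rows are gene lists with the number of genes tested, columns are arrays, and colour and printed value give the list's median log2 deviation from the control mean. Class II is highest in the 3 knockouts, the dendritic cell and macrophage list is high in the knockouts and in control 1, and the endothelial and interferon gamma lists stay within about 0.1 of 0.

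The genes most like the class II pattern were ranked by Pearson's r over the 6 arrays with the mean deviation of H2-Aa, H2-Ab1, H2-Eb1 and Cd74. Of 15309 other genes, the 5 with the highest r were Mirt2 (0.994), Ada (0.993), Pgbd5 (0.992), Brwd1 (0.988) and H2-Oa (0.988), and 81 had r over 0.95. Among the other members, r with this pattern was 0.98 for H2-DMb1, 0.85 for H2-DMa and 0.68 for Ciita. In class I it was 0.89 for B2m, 0.88 for H2-K1 and 0.76 for H2-D1, so the pattern was not particular to class II. For the class I pattern, the mean of H2-K1, H2-D1 and B2m, the 5 were Erc2, H2-Oa, Epdr1, Ada and Cxcl9, with r from 0.988 to 0.995. With the class I pattern, r of the class II members ran from 0.61 for Ciita and 0.78 for H2-DMa to 0.99 for H2-Ab1. That of the class I members was 0.93 for B2m, 0.91 for H2-K1 and 0.71 for H2-D1. These values describe 6 arrays of 1 slide, in which the difference between the groups is part of each pattern.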

How the data were processed

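Whole-kidney total RNA was labelled with Cy3 for SurePrint G3 8x60K mouse expression arrays, per the labels. The software was Agilent Feature Extraction 10.7.1.1 by the submitters' processing notes. The authors' spot intensity was, per the file headers, background-subtracted and detrended within each array. The 0 or 1 spot flags are used as deposited. A value table deposited by the authors holds a linear ratio, equal to the signal over a constant of each array in at least 99.99% of the probes above 1 (within 1%), and served as an alternative.

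Outlier spots were left out, log2 of the processed intensity was averaged per probe and each array's 75th percentile was subtracted. A probe was kept if every array of either group had it well above background. Unversioned accessions were looked up in RefSeq's GRCm38.p6 table, which is not the arrays' build, so its gene coordinates were not used. The kept probe with the highest mean stood for a gene. The comparison used limma 3.58.1 in R 4.3.3 with the group as single term and Benjamini-Hochberg adjustment over 15319 genes. An exact two-sided permutation test of 3 against 3 cannot go below p = 0.1. The fit was tested on simulated data. Python 3.11.15, pandas 2.3.3 and matplotlib 3.10.9 were used for tables and plots.

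The members and lists were chosen with earlier results of these data known. All members are named, and up to 4 genes of smallest p of each list, plus 5 genes for each likeness pattern. Others named (H2-Eb2, H2-DMb2, H2-Ob, Xcr1, Batf3, Cx3cr1, Itgam, Zbtb46, Ifng and the undetected B cell genes) were chosen after their values were seen. So were Sppl2a, Cd3d, Cd3e, Cd4, Cd8a, Cd8b1 and Nkg7. Some genes of the lists are not reported here by name. Correlations across genes were 0.10, -0.10 and -0.03 for same-numbered animals and ran from -0.09 to 0.12 for the others. With 3 arrays per group these cannot settle whether the numbers pair the animals. The main fit left them unpaired, and a replicate block was an alternative. With it the SE of H2-Aa fell from 0.24 to 0.09 and that of H2-DMa rose from 0.10 to 0.12.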

Additional observations from a re-analysis of the deposited data

How the results depend on the processing

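All 10 members kept a positive difference under all 18 alternatives. None passed the adjusted threshold except with array weights, where 2 did, Cd74 (0.48, adjusted p = 0.0417) and H2-DMb1 (0.39, adjusted p = 0.0491), and where 10 members had an unadjusted p under 0.05. That setting raised the count over all genes too, in either direction, to 3604 of 15319 from 1962 in the main fit. The Ciita difference ran from 0.64 to 1.84 and H2-K1 from 0.12 to 0.44. The gap of class II over class I, as knockout minus control, ran from 0.31 to 0.41. With 1 array left out at a time, 3 to 7 members had an unadjusted p under 0.05, and in 6 to 10 all knockouts lay above all controls. Among all genes tested, 1383 to 2164 had such a p in these fits, in either direction. How many of all genes had no overlap in them was not counted, and fewer arrays make that easier to reach. Over all genes, the calls, 16 higher and 10 lower, changed to 5 and 6 with quantile normalisation and 27 and 30 with a trended and robust variance. They were 203 and 135 with array weights, 64 and 13 without a filter for dim probes, and 5 and 11 with slide row as a block. With 1 array left out they ran from 0 to 59 higher and from 0 to 36 lower. With every probe on its own the calls were of probes, 9 higher and 17 lower of 32957, probes without a gene name included. With the replicate block, 0 genes were higher and 0 lower by limma, with 1634 at an unadjusted p under 0.05, and 6 members had an unadjusted p under 0.05, among them H2-K1 and not H2-DMa. The causes were not tested. The number of animals limits all differences, and Ciita was the member with the lowest signal over background.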
